A study of Mus musculus with 4 samples.

Results

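The alpha-globin cluster of the mouse was examined as a window of 180 kb on chromosome 11 of mm9, from 32050000 to 32230000, that holds the globin genes Hba-x, Hba-a1 and Hba-a2 and their upstream regulatory elements in and near Nprl3. H3K27ac, a histone modification found at active promoters and enhancers, was measured by ChIP-seq: chromatin was precipitated with an antibody to the mark (Abcam Ab4729) and its DNA was sequenced. G1E cells are a line of strain 129 made from ES cells with a knock-out of Gata1, immortalized as a model of erythroid progenitors, and were untreated. The G1E-ER4 cells are a subline of G1E carrying a viral transgene for GATA1-ER, a hormone-dependent form of GATA1, and were given 10 nM estradiol for 24 h (G1E-ER4+E2), which makes them a model of differentiating erythroblasts. There were 2 replicates of each, and the cell lines share the Gata1 knock-out. Untreated G1E-ER4 cells were not analysed here, so the subline, the transgene and estradiol cannot be told apart. The peak lists hold no expression values, so neither the cell type nor the Gata1 knock-out could be checked against them. Every peak that overlapped the window was taken, whatever its strength, which gave 45 of the 151551 peaks in the 6 lists, a list for each of the 4 replicates and a pooled list for each cell line.

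The alpha-globin genes encode the alpha chains of hemoglobin. Hba-x is the embryonic zeta gene and is followed by the nearly identical adult genes Hba-a1 and Hba-a2, whose expression depends on GATA1 and on remote enhancers in the introns of the neighbouring gene Nprl3 and beside it. The gene order along the chromosome in RefSeq (GRCm38.p6) is Il9r, Snrnp25, Rhbdf1, Mpg, Nprl3, Hba-x, Hba-a1, Hbq1b, Hba-a2, Hbq1a and Sh3pxd2b. Il9r encodes the receptor for interleukin 9, Snrnp25 a protein of the minor spliceosome, Rhbdf1 an inactive rhomboid protein, Mpg a DNA repair glycosylase and Nprl3 a subunit of the GATOR1 complex, which restrains mTORC1 signalling. Hbq1b and Hbq1a are theta-globin genes, and Sh3pxd2b encodes an adaptor protein. Gene borders in mm9 were not at hand, so no peak is assigned here to the promoter of a single gene.

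The DNA just before the starts of Hba-x and Hba-a1 is shown because both promoters lie in the cluster whose H3K27ac is described here, and because the Hba-a1 sequence shows how alike the adult copies are. The sequences are from RefSeq, on the plus strand of GRCm38.p6, at chr11:32276350-32276599 for Hba-x and chr11:32283422-32283671 for Hba-a1. They end at the base before the transcription start. These positions belong to another build and were not compared with the peaks. The capitals mark TGATAA, a form of the motif bound by GATA factors, and CCACCC, a motif bound by KLF factors.
Hba-x: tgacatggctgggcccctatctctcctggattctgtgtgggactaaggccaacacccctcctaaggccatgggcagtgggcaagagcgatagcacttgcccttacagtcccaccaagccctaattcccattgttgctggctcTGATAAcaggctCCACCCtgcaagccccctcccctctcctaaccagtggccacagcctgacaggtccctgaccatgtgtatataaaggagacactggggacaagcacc
Hba-a1: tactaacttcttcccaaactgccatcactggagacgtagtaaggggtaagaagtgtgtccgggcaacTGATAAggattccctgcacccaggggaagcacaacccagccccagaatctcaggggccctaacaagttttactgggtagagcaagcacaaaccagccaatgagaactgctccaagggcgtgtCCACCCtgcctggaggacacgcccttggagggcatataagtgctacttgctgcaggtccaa

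Each of the 3 promoters held TGATAA once and CCACCC once in the 250 bases before the start, on the strand shown and without overlap. TGATAA was found, on either strand, in 7.94% of the 32851 promoter sequences of the same length and CCACCC in 28.1%. TGATAA ended 103 bases before the start of Hba-x, 178 before that of Hba-a1 and 181 before that of Hba-a2. CCACCC ended 91, 56 and 59 bases before these starts. On either strand, no match was found in the 3 promoters to AGATAA (9.99% of all promoters), to TGANTCA, the core of the NF-E2 motif (6.75%), or to CTG and AGATAA set 8 bases apart, the composite motif of TAL1 and GATA1 (0.307%). The promoter sequences of Hba-a1 and Hba-a2 shared an identical run of 297 of the 300 bases in the table, where the longest run shared by Hba-x and Hba-a1 was 10 bases. For the theta genes Hbq1a and Hbq1b the longest identical run was 105 bases. A read that lies wholly within such a run matches both copies, and how such reads were assigned is not given in the sources used here, so H3K27ac at one adult copy cannot be told apart from that at the other there.

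Of the TAL1-occupied DNA segments (TAL1 OSs) that the study lists for G1E-ER4+E2 cells, 6 lie in the window, numbered 625 to 630 in the order of the chromosome. TAL1 OSs 624 and 631, the next on either side, lie outside it. TAL1 is a transcription factor that acts with GATA1 at erythroid enhancers. TAL1 OS 625 is on chromosome 11 from 32100092 to 32100760. TAL1 OSs 626 (32145197 to 32146357), 627 (32150588 to 32151471), 628 (32155842 to 32156815), 629 (32164909 to 32165674) and 630 (32168747 to 32169528) form a group of 5 whose midpoints span 23.4 kb. From one midpoint to the next they are 5.25, 5.30, 8.96 and 3.85 kb apart. The known alpha-globin enhancers are named for their distance in kb upstream of zeta globin, as HS-31, HS-26, HS-21, HS-12 and HS-8, and these names put them 5, 5, 9 and 4 kb apart. The spacings thus differed from those of the names by at most 0.299 kb. The TAL1 OSs are matched to the elements here by this spacing alone. Counted forward from each midpoint by the distance in its element's name, the start of the zeta gene Hba-x would lie between 32176776 and 32177328, a range of 552 bp that is an estimate and not an annotation. The names are in whole kb, so this range is not the error of the estimate.

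In the pooled G1E-ER4+E2 list the window held 2 long H3K27ac peaks separated by a narrow gap, and 3 lesser ones below them. The pooled list had peaks from 32091001 to 32107000 (16.0 kb), from 32116401 to 32119000 (2.6 kb), from 32125201 to 32132600 (7.4 kb), from 32135201 to 32177200 (42.0 kb) and from 32178001 to 32201200 (23.2 kb). They are called below the first, small, middle, enhancer and gene-side domains. The enhancer domain holds TAL1 OSs 626 to 630. The gene-side domain begins just beyond the estimated start of Hba-x, on the side of the adult alpha and theta genes by the gene order. The domains were defined from the G1E-ER4+E2 peaks, so their cover in those cells is largely given by the definition, and it is described below without a test. The percentiles over the domains rest on the same borders, so the tests given for them are not independent of the definition.

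**Figure D1:**
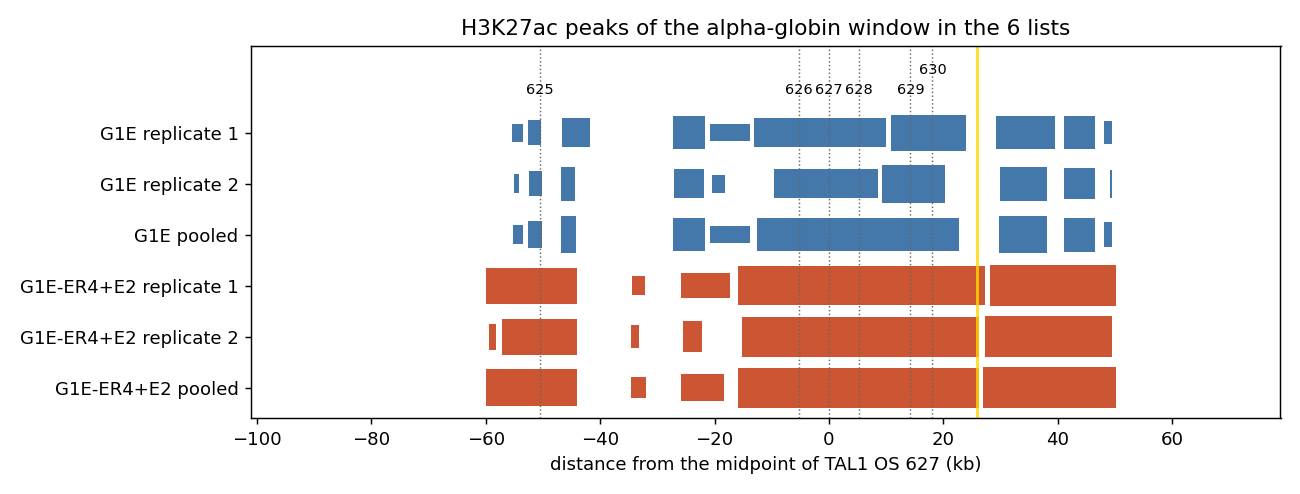
H3K27ac peaks (bars) in the alpha-globin window, 1 row per list, against the distance in kb from the midpoint of TAL1 OS 627; a taller bar has a higher rank by enrichment in its list, dotted lines mark the TAL1 OSs and the yellow band the estimated start of Hba-x. The G1E rows have 9 or 10 peaks and the G1E-ER4+E2 rows 5 or 6, with a gap of 0.8 to 1.2 kb in the latter between the last long peaks.

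The same window was more broken up in G1E cells. It had 10 peaks in both G1E replicates, 5 in G1E-ER4+E2 replicate 1 and 6 in replicate 2. The widest peak was 23.0 kb in G1E replicate 1, 18.2 kb in G1E replicate 2, 43.2 kb in G1E-ER4+E2 replicate 1 and 41.4 kb in replicate 2. In every replicate it held TAL1 OSs 626 to 628, and in G1E-ER4+E2 also TAL1 OSs 629 and 630. The mean of the widest peak was 20.6 ± 3.39 kb (SD, n = 2) in G1E and 42.3 ± 1.27 kb (SD, n = 2) in G1E-ER4+E2. The difference of 21.7 kb was larger than the spread between replicates, but in the pooled lists, where the G1E enhancer peaks were joined, the widest peaks were 35.4 and 42.0 kb, a difference of 6.6 kb. For all comparisons of 2 against 2 replicates given here, an exact two-sided permutation test cannot go below p = 0.333, and it gave that value for the widest peak and for the number of peaks. Nothing in the labels says that the replicates came from separate cultures, and such p-values then cover only the spread between these samples.

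The part of the window in peaks was 41.7% in G1E replicate 1, 31.1% in G1E replicate 2, 51.1% in G1E-ER4+E2 replicate 1 and 45.9% in G1E-ER4+E2 replicate 2. The groups did not overlap. The means were 36.4 ± 7.46% and 48.5 ± 3.69% (SD, n = 2 each), a difference of 12.1 percentage points (exact two-sided permutation test, p = 0.333). Without G1E replicate 2 the difference was 6.83 percentage points. The rise was not particular to the alpha-globin genes: of 7204 windows of 180 kb tiled over the genome that had a peak in any replicate, 45.5% had more cover in both G1E-ER4+E2 replicates than in both G1E replicates. The difference was higher here than in 85.3% of these windows, whose median was 0.556 percentage points. By cover itself this window stood above at least 97.1% of all windows in each list, and the difference was not ranked among windows of like cover. The G1E-ER4+E2 replicates had peaks over 163 and 161 Mb of the genome and the G1E replicates over 126 and 113 Mb. When each list was cut to its most enriched peaks at the length of the smallest, 113 Mb, the window was covered to 36.7% and 31.1% in G1E and to 45.1% and 44.4% in G1E-ER4+E2.

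**Figure D2:**
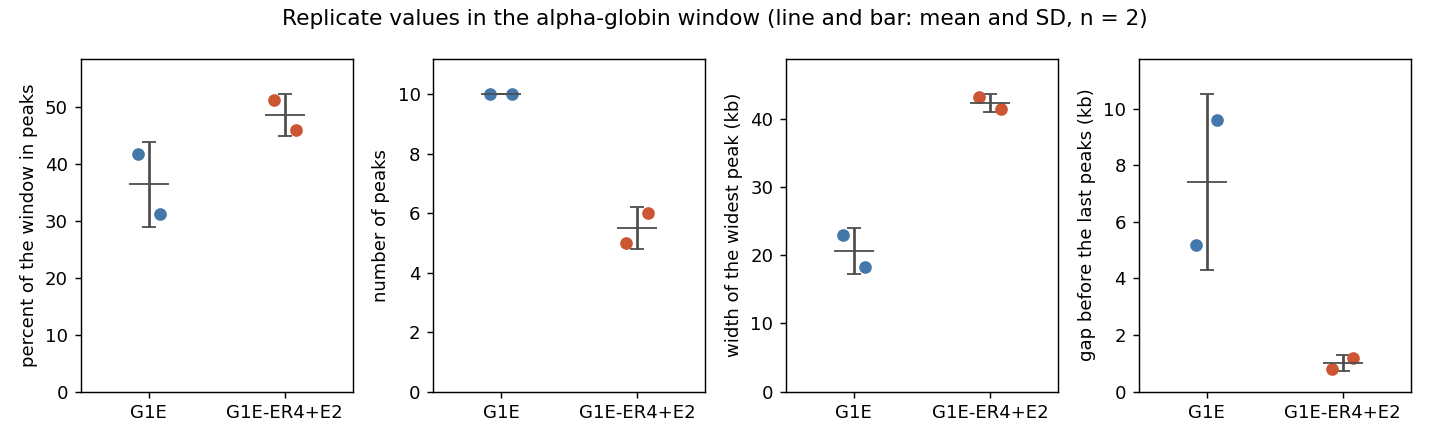
Percent of the alpha-globin window in H3K27ac peaks, number of peaks, width of the widest peak (kb) and length of the gap between the enhancer and gene-side peaks (kb) in each replicate (points), with mean and SD (n = 2). The replicates of the cell lines do not overlap in any panel, with 10 peaks in both G1E replicates against 5 and 6.

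H3K27ac in the cluster had sharp outer limits. The windows of the same length on either side had almost none. On the Il9r side, a peak was found only in G1E-ER4+E2 replicate 1 (1.2 kb), 66 kb below the alpha-globin window. On the Sh3pxd2b side a peak was found only in G1E replicate 2 (1.8 kb) and the pooled G1E list. In the pooled lists the nearest peak outside the window was 200.4 kb below it in G1E and 200 kb below it in G1E-ER4+E2, and 159 kb above it in G1E and 212 kb above it in G1E-ER4+E2. In each of the 6 lists the cover of the alpha-globin window exceeded that of at least 97.1% of all windows, of which the median had none. The 5 windows most like it, by Euclidean distance over the percent covered in the 4 replicates, were 1.93 to 3.84 percentage points away. The nearest was on chromosome 12 from 109990001 to 110170000, with 42.9% and 31.2% in the G1E replicates and 52.1% and 47.0% in the G1E-ER4+E2 replicates. The others were on chromosome 17 from 32230001 to 32410000, chromosome 15 from 76150001 to 76330000, chromosome 9 from 108190001 to 108370000 and chromosome 8 from 72370001 to 72550000.

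The enhancer domain was already marked in G1E cells, without GATA1, over most of its length. Its 42.0 kb were covered to 91.0% in G1E replicate 1 and 69.5% in replicate 2, against 100% and 98.6% in the G1E-ER4+E2 replicates. The G1E mean was 80.2 ± 15.2% (SD, n = 2), and the pooled G1E list covered 89.0%. In both G1E replicates the mark was split between TAL1 OSs 628 and 629. In G1E replicate 1 a peak from 32138001 to 32161000 held TAL1 OSs 626 to 628, and another from 32161801 to 32175000 held TAL1 OSs 629 and 630. In replicate 2 these peaks ran from 32141401 to 32159600 and from 32160401 to 32171400. Both gaps were 0.8 kb, which is also the smallest gap between neighbouring peaks in every list, and they did not overlap each other. The pooled G1E list had 1 peak over all 5, from 32138401 to 32173800. In both G1E-ER4+E2 replicates 1 peak held the whole group, from 32135201 to 32178400 and from 32135801 to 32177200.

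The outer borders of the enhancer peaks moved outward on both sides. The lower border was at 32138001 and 32141401 in the G1E replicates and at 32135201 and 32135801 in the G1E-ER4+E2 replicates. The upper border was at 32175000 and 32171400 in G1E and at 32178400 and 32177200 in G1E-ER4+E2. The cell lines did not overlap at either border. In G1E replicate 1 and the pooled G1E list, a weak peak from 32130201 to 32137200 lay just below the enhancer peaks and reached into the space that the G1E-ER4+E2 peak takes. In G1E replicate 2 the corresponding peak ended at 32132800.

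The enhancers lay in peaks of unequal rank in the G1E replicates and in 1 peak in each G1E-ER4+E2 replicate. The enrichment is the authors' ratio and depends on the library, so it was ranked only within a list. The peak over TAL1 OSs 626 to 628 had an enrichment of 6.99 in G1E replicate 1, above 51.6% of the peaks, and of 9.23 in replicate 2, above 56.2%. The peak over TAL1 OSs 629 and 630, those nearest the genes, stood higher, at 14.5 (82.2%) and 20.2 (88.1%). In G1E-ER4+E2 the single peak had an enrichment of 11.6 in replicate 1, above 95.8% of the peaks, and of 15.3 in replicate 2, above 96.0%. It ranked 1228 of 29087 peaks and 1058 of 26740. The best peak over the domain ranked 3831 of 21557 and 2784 of 23451 in the G1E replicates. The mean percentile of the best peak was 85.2 ± 4.17% in G1E and 95.9 ± 0.188% in G1E-ER4+E2 (SD, n = 2 each; exact two-sided permutation test, p = 0.333). At equal covered length the best peaks stood above 79.4% and 88.1% in G1E and above 92.1% and 92.8% in G1E-ER4+E2. In the pooled lists the percentiles were 70.8% and 97.6%, a difference of 26.7 points.

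All 6 TAL1 OSs overlapped a peak in all 6 lists. The share of all TAL1 OSs that do so is not given, since the study's list was at hand only in part. TAL1 OSs 626 to 630 lay wholly inside a peak in each list. The distance from TAL1 OS 630, matched to HS-8, to the upper border of its peak was 5472 and 1872 bp in the G1E replicates and 8872 and 7672 bp in the G1E-ER4+E2 replicates. The distance from TAL1 OS 626, matched to HS-31, to the lower border was 7196 and 3796 bp in G1E and 9996 and 9396 bp in G1E-ER4+E2. TAL1 OS 627, matched to HS-26, lay at least 8129 bp from either border in every list. It is thus an interior element in both cell lines.

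The gene-side domain was covered by 3 separate peaks in every G1E list. In replicate 1 they ran from 32180201 to 32190600, from 32192201 to 32197600 and from 32199201 to 32200600. In replicate 2 they ran from 32181001 to 32189200, from 32192201 to 32197600 and from 32200201 to 32200600. The middle peak thus had the same borders in both. In G1E-ER4+E2 the same stretch was 1 peak, from 32179201 to 32201200 in replicate 1 and from 32178401 to 32200600 in replicate 2. Its width was 22 kb in the first and 22.2 kb in the second. The covered part of the domain was 74.1% and 60.3% in the G1E replicates and 96.6% and 95.7% in the G1E-ER4+E2 replicates. In G1E-ER4+E2 replicate 1 the upper end of the enhancer peak reached into the domain, and the gene-side peak alone covered 94.8% of it.

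The most enriched G1E peak over the gene-side domain was above 71.1% of the peaks in replicate 1 and 72.5% in replicate 2. The G1E-ER4+E2 peak was above 99.0% of its list in replicate 1, with an enrichment of 16.8, and above 98.9% in replicate 2, with 21.2. It ranked 282 of 29087 and 293 of 26740, where the best G1E peaks ranked 6231 of 21557 and 6450 of 23451. The mean percentile was 71.8 ± 0.990% in G1E and 99.0 ± 0.0893% in G1E-ER4+E2 (SD, n = 2 each), a difference of 27.2 points that was larger than the spread between replicates (exact two-sided permutation test, p = 0.333). With each list cut to the same covered length, the percentiles were 66.4% and 72.5% in G1E and 98.2% and 98.0% in G1E-ER4+E2. In the pooled lists the difference was 16.3 points. In G1E-ER4+E2 the gene-side peak stood above the enhancer peak in all 3 lists. In G1E the peak over TAL1 OSs 629 and 630 stood above every gene-side peak in both replicates, but in the pooled list, where the enhancer peaks were joined, the gene-side peak from 32180801 to 32189200 stood higher, at 82.7% against 70.8%. The percentile of a peak also reflects how the caller joined neighbouring stretches, and the median enrichment, whose scale depends on the library, was 6.69 and 7.76 in the G1E replicates and 2.98 and 3.59 in the G1E-ER4+E2 replicates. The equal-length lists held 18565 and 23451 peaks in G1E and 15540 and 14640 in G1E-ER4+E2. The part of the median enrichment in the percentiles was not tested.

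**Figure D3:**
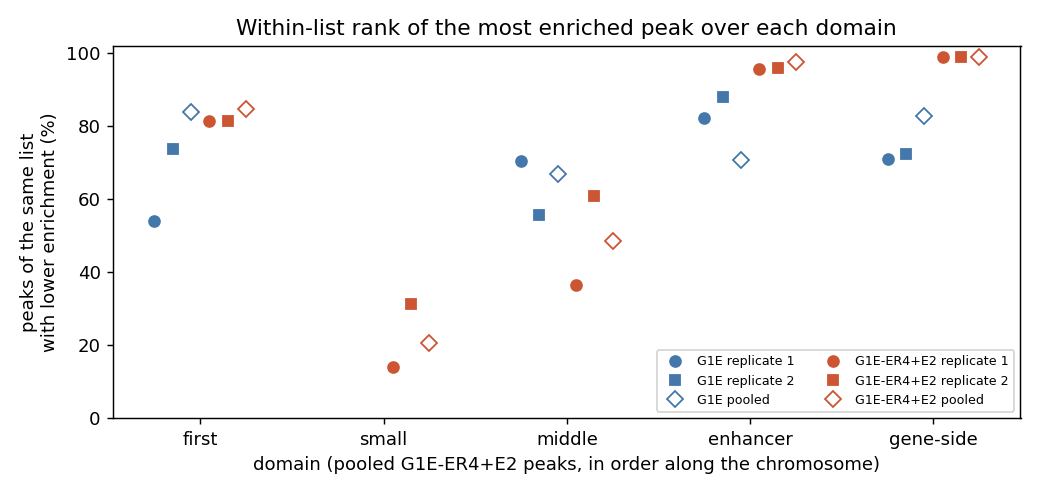
Percent of the peaks of the same list that have a lower enrichment than the most enriched peak over each of the 5 domains, for each replicate (filled) and pooled list (open). Over the gene-side domain the G1E-ER4+E2 replicates are at 99.0% and 98.9% and the G1E replicates at 71.1% and 72.5%, the small domain has no G1E peak, and the replicates of the cell lines overlap at the middle one.

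Between the enhancer and gene-side peaks a gap remained in every list. It was 5.2 kb in G1E replicate 1 (32175001 to 32180200) and 9.6 kb in G1E replicate 2 (32171401 to 32181000). In G1E-ER4+E2 it was 0.8 kb in replicate 1 (32178401 to 32179200) and 1.2 kb in replicate 2 (32177201 to 32178400). The means were 7.4 ± 3.11 kb and 1.0 ± 0.283 kb (SD, n = 2 each; exact two-sided permutation test, p = 0.333), and the replicates of the cell lines did not overlap. The gaps of the G1E-ER4+E2 replicates did not overlap in position, and each stretch lay inside a peak of the other replicate. The 0.8 kb of replicate 1 is also the smallest gap between neighbouring peaks in every list. All 5 estimates of the start of the zeta gene Hba-x fell in the gap in the 3 G1E lists. In G1E-ER4+E2 replicate 1 all 5 fell inside the enhancer peak, and in replicate 2 and the pooled list 3 fell inside it and 2 in the gap. Since the element names are in whole kb, the estimates cannot tell whether the start lies in the peak or the gap in G1E-ER4+E2.

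Of the 5 pooled G1E-ER4+E2 peaks, 4 overlapped 2 or more pooled G1E peaks. The first and gene-side peaks overlapped 3 each, and the middle and enhancer peaks 2 each. The same weak pooled G1E peak, from 32130201 to 32137200 and above 5.32% of its list, was counted for both the middle and the enhancer peak. Without it each of them overlapped only a single pooled G1E peak. Over the genome 8.30% of the pooled G1E-ER4+E2 peaks did so, but the share grew with width, to 25.5% for peaks of 7.4 kb or more and 61.9% for those of 20 kb or more. The 2 peaks of the window above 20 kb both did, which at such widths is a common state. In each pairing of a G1E-ER4+E2 with a G1E replicate, the longest peaks over the first, enhancer and gene-side domains each overlapped 2 or 3 G1E peaks. In the middle domain this held with G1E-ER4+E2 replicate 1 only.

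The first domain, around TAL1 OS 625, had 6.1 ± 0.990 kb in peaks in G1E and 15.2 ± 1.13 kb in G1E-ER4+E2 (SD, n = 2 each). It was covered to 42.5% and 33.8% in the G1E replicates and to 100% and 90% in the G1E-ER4+E2 replicates. Both G1E replicates had 3 narrow peaks over it, of which the middle one overlapped TAL1 OS 625. The lowest ran from 32095601 to 32097600 in replicate 1 and from 32096001 to 32096800 in replicate 2, above 11.4% and 11.8% of the list. In G1E replicate 1 that peak, from 32098401 to 32100600, held 76.1% of the OS, and in replicate 2 the peak from 32098601 to 32100800 held all of it with 40 bp to spare. The peak stood above 39.0% and 36.4% of its list in G1E. In G1E-ER4+E2 TAL1 OS 625 lay deep inside a peak of 16.0 kb in replicate 1 and 13.2 kb in replicate 2, which stood above 81.4% of the list in both and extended 6240 bp beyond the OS on its upper side. The most enriched G1E peak of the domain was the last of the 3, above 54.0% and 73.9% of its list in the replicates and 84.0% in the pooled list, beside 84.8% for the pooled G1E-ER4+E2 peak. At equal covered length it stood above 46.6% and 73.9% in the G1E replicates, where the G1E-ER4+E2 peak stood above 65.1% and 65.9%, so the ranks then overlapped (exact two-sided permutation test, p = 1). G1E-ER4+E2 replicate 2 also had a peak of 1.2 kb from 32091601 to 32092800, above 41.9% of its list. The upper end was at 32107000 in both G1E-ER4+E2 replicates, where the last of the narrow G1E peaks ended at 32109200 in replicate 1, beyond the domain, and at 32106600 in replicate 2.

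The small domain had no peak in any G1E list. In G1E-ER4+E2 there was a peak of 2.2 kb in replicate 1 and of 1.4 kb in replicate 2, with enrichments of 1.94 and 2.72 that exceeded those of 14.1% and 31.2% of the list. It is thus a weak peak, and it was the only one of the 5 pooled peaks that overlapped no pooled G1E peak, a state that 40.3% of the pooled G1E-ER4+E2 peaks shared.

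In the middle domain the direction depended on the measure and the lists. In G1E a compact peak from 32123801 to 32129400 in replicate 1 and from 32124001 to 32129200 in replicate 2 stood above 70.5% and 55.6% of the list. In G1E-ER4+E2 the peak there started later, at 32125201 and 32125601, and stood above 36.5% and 60.8%, so the ranks overlapped between the cell lines (exact two-sided permutation test, p = 0.667). In the pooled lists it stood above 67.0% in G1E and 48.7% in G1E-ER4+E2. At equal covered length the ranks no longer overlapped: the G1E peaks stood above 65.7% and 55.6%, the G1E-ER4+E2 peak of replicate 2 above 28.4%, and that of replicate 1 was no longer among the peaks kept. The stretch of 1.2 kb from 32124001 to 32125200 was the only one of the window to lie in peaks of both G1E replicates and of neither G1E-ER4+E2 replicate. In G1E-ER4+E2 the peak spanned 8.6 kb in replicate 1 but 3.2 kb in replicate 2, and the cover of the domain there, 100% and 43.2%, lay on both sides of the G1E values of 89.2% and 81.1%. The pooled lists covered 89.2% of it in G1E and 100% in G1E-ER4+E2. Between the compact peak and the enhancer peaks, G1E cells also had a weak peak, from 32130201 to 32137200 in replicate 1 and from 32130601 to 32132800 in replicate 2, above 6.48% and 9.56% of the list.

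Bins of 200 bp, the step of the peak borders, were sorted by the replicates in which they lay in a peak. In the window 98.0 kb lay in a peak of at least 1 replicate. Of this, 51.6% (50.6 kb) was marked in all 4 replicates, where over the genome 28.5% of such bins were. Bins marked in both G1E-ER4+E2 replicates and neither G1E replicate made up 15.9% (15.6 kb), against 23.0% over the genome. Bins marked in both G1E replicates and neither G1E-ER4+E2 replicate made up 1.22% (1.2 kb), against 10.2%. Neighbouring bins share a peak and are not independent, so these shares were not tested. The genome shares are over peaks of all widths, and no shares for peaks as wide as those of the window were computed. The gain was 29.8 kb without G1E replicate 1, and the loss 5.0 kb without G1E replicate 2 and 4.2 kb without G1E-ER4+E2 replicate 1. The remaining 31.2% differed between replicates of a cell line.

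**Figure D4:**
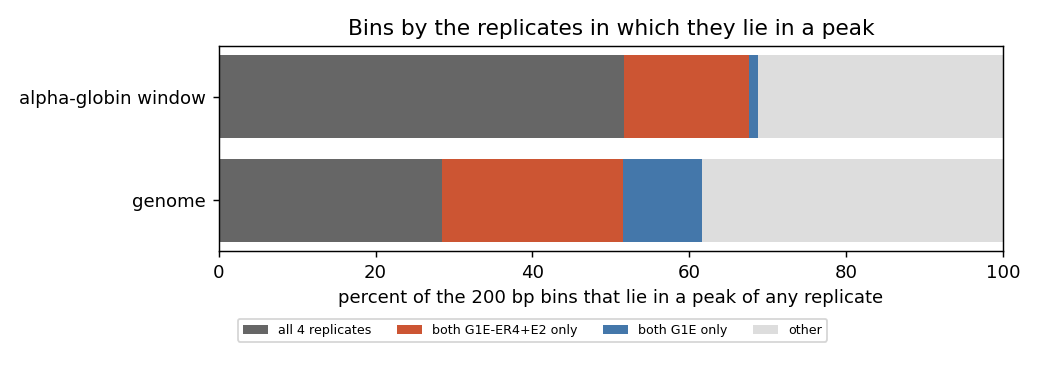
Share of 200 bp bins, among those in a peak of any replicate, that lay in a peak in all 4 replicates, in both G1E-ER4+E2 replicates only, in both G1E replicates only, or in another combination, for the alpha-globin window and the genome. The window has 51.6% in all 4 against 28.5% in the genome, and 1.22% in both G1E replicates only against 10.2%.

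There were 10 stretches marked in all 4 replicates, of which 3 held all or part of a TAL1 OS. The longest, of 18.2 kb from 32141401 to 32159600, held TAL1 OSs 626, 627 and 628. One of 9.6 kb from 32161801 to 32171400 held TAL1 OSs 629 and 630. One of 2 kb from 32098601 to 32100600 held part of TAL1 OS 625. The others overlapped no TAL1 OS. They were 0.8 kb from 32096001 to 32096800, 2.2 kb from 32104401 to 32106600, 3.2 kb from 32125601 to 32128800, 0.6 kb from 32160401 to 32161000 and, on the gene side, 8.2 kb from 32181001 to 32189200, 5.4 kb from 32192201 to 32197600 and 0.4 kb from 32200201 to 32200600. The stretches gained in both G1E-ER4+E2 replicates were short, 10 of them with the longest at 3.4 kb, from 32100801 to 32104200 in the first domain. On the gene side they were the spaces between the 3 G1E peaks, 1.6 kb from 32190601 to 32192200 and 1.6 kb from 32197601 to 32199200, and 1.0 kb before the first of them, from 32179201 to 32180200. A gained stretch of 2.2 kb from 32175001 to 32177200 held 3 of the 5 estimates of the start of Hba-x.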

How the data were processed

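H3K27ac ChIP-seq (TruSeq ChIP Sample Prep Kit) was deposited as broad peak lists on mm9, 1 for each of 4 replicates and 1 for the pooled replicates of each cell line. Per the labels (the submitters' processing notes, which give no roles), bcl2fastq 1.8.4, Bowtie 1.0.0 and SICER 1.1 were used. The control, the settings, the handling of reads with several matches and the way of pooling are not given in the sources used here. The deposited columns used were the peak borders, the enrichment (a linear ratio) and the q-value. The deposited p-value was not used. All q-values were at most 0.01. Borders were multiples of 200 bp, and no neighbouring peaks of a list were closer than 800 bp. Read counts are absent from the lists, so depth and counting error are not known here.

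Borders are given 1-based. A percentile is the share of a list's peaks with a lower enrichment. Overlap needs at least 1 bp. Windows of 180 kb were tiled in phase with the alpha-globin window up to the last peak of each chromosome. Groups were compared by exact permutation tests over the replicates. Coordinates of TAL1 OSs are those of the study's list, which was at hand only in part, and no test over that list was made. The rule was to name every gene and TAL1 OS of the window and the 5 nearest windows, and to describe every peak. The peaks are given by domain, those of the pooled G1E list only where they differ from the replicates. The window, its members and the lists were chosen with earlier results of these data known. The alternatives were the pooled lists, stricter peaks, equal covered length, other window and bin lengths, other overlaps, each replicate left out and a replicate block. The window and bin computations were tested on simulated data. Python 3.11.15, NumPy 2.4.6, pandas 2.3.3 and Matplotlib 3.10.9 were used.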

Additional observations from a re-analysis of the deposited data

How the results depend on the processing

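The difference in the percent of the window covered stayed positive under every alternative. With all replicates kept, it ranged from 9.91 percentage points with the window widened by 20000 bp on each side to 15.6 with it shortened by as much. With 1 replicate left out it ranged from 6.83 to 17.4 (exact permutation test, p from 0.333 to 0.667, where 1 sample against 2 cannot go below 0.333). With a replicate block, which compares samples of the same number, it was 12.1 percentage points (exact sign-flip test, p = 0.5, the smallest that 2 pairs allow). The labels do not say that the numbers pair the samples, and over windows the differences between replicates 1 and 2 of the cell lines had a correlation of 0.331. The gained length was 25.2 kb with the pooled lists, and 16.6 to 29.8 kb with 1 replicate left out. The lost length was 4.0 kb with the pooled lists, 2.0 kb both with peaks from the median enrichment of their list upward and at equal covered length, and 1.2 to 5.0 kb with 1 replicate left out. With 1 replicate left out the difference in the widest peak was 19.3 to 24.1 kb and in the gene-side percentile 26.5 to 27.9 points. For the first domain the percentile difference of 17.4 points was 5.33 at equal covered length, 0.838 in the pooled lists, 7.51 without G1E replicate 1 and 27.4 without G1E replicate 2. The mean enrichment percentile of the widest peak was 53.9 in G1E and 95.9 in G1E-ER4+E2. Among peaks at least as wide as the list median it was 38.7 and 94.4, and ranked by width it was 97.6 and 99.5. With 1 replicate left out it ranged from 51.6 to 56.2 in G1E and from 95.8 to 96.0 in G1E-ER4+E2. With peaks from the median enrichment upward, 5 of the 6 TAL1 OSs were in a peak of all 4 replicates, as TAL1 OS 625 was then outside in both G1E replicates. Apart from the gained and lost lengths with 1 replicate left out, where fewer replicates must agree, the cause of these shifts was not tested. This includes the gained and lost lengths with the pooled lists, which are separate sets of peaks. Leaving out a replicate was added after seeing the data for the bins, the TAL1 OSs, the widest peak, the domains and the percentiles, as were the pooled lists for the widest peak and all settings for the domains. The number of replicates, 2 per cell line, and the absence of read counts limit the precision of every value.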
